A study of Mus musculus with 6 samples.

Results

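Cardiac fibroblasts (CFs) were examined here through 10 genes that are used to recognise fibroblasts and to tell their subsets apart: *Thy1*, *Fap*, *S100a4* and *Vim*, which mark activated fibroblasts or mesenchymal cells in general, and *Pi16*, *Cd34*, *Ly6a*, *Dpt*, *Dpep1* and *Gsn*, which mark resting, adventitial or progenitor-like fibroblasts. They were picked by symbol from a list of names, and all 10 were found among the 19446 genes of the table and among the 15948 genes with enough reads to be tested. The libraries were made from poly(A) RNA of cultured CFs of 5-week-old C57BL/6J mice, 3 from wild-type (WT) and 3 from CharmeKO animals, in which a polyadenylation signal inserted at *Charme*, a long non-coding RNA gene, is meant to end its transcription early in all cells of the animal. The cells had grown out of fragments of atrial tissue on fibronectin in serum-rich medium, and tissue of several littermates could enter a primary line, so that a library need not stand for a single animal. The study asked how CFs change when *Charme* is lost, and it followed activated fibroblasts by the surface proteins that *Thy1* (CD90) and *Ly6a* (Sca1) encode. Library numbers below are the replicate numbers of the labels, and WT and CharmeKO libraries of the same number are called a pair. The labels do not state a pairing. Deviations from the group means were correlated within numbers 1, 2 and 3 with r = 0.762, 0.514 and 0.217. For number 3 this was no higher than for WT 2 with CharmeKO 3 (0.222), so that pair 3 was not set apart by this measure.

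Resident fibroblasts of the heart keep the extracellular matrix in repair and hold a resting program. After injury, or when plated on a stiff dish with serum, they become activated, divide, and in part turn into contractile myofibroblasts. Fibroblasts around vessels form a distinct adventitial population that carries *Pi16*, *Cd34*, *Ly6a* and *Dpt* and is regarded as a progenitor pool in several tissues. None of these genes belongs to fibroblasts alone. *Cd34* and *Ly6a* are also made by endothelial and blood-forming cells, *Thy1* by T cells and neurons, *S100a4* by macrophages, and *Vim* by most cells in culture.

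The sequences below show where the members are read out and where their transcription starts. *Thy1* was also followed by qPCR in the study, and its primers show which exons that readout covers. Both primers, 5′ to 3′ and in lower case throughout with positions in GRCm38, matched 4 of the 6 annotated *Thy1* transcripts in neighbouring exons, and no other gene held both.
Thy1 forward primer, chr9:44045959-44045978: tccaagtcggaactcttggc
Thy1 reverse primer, chr9:44046667-44046686: tccaggcgaaggttttggtt
For the 4 members whose level followed the replicate number most (*Vim*, *Cd34*, *S100a4* and *Dpt*), sequence before the RefSeq start of transcription is shown on the plus strand of GRCm38.p6, which all 4 genes use. The stretches of *Cd34*, *Dpt* and *Vim* end 2, 19 and 14 bases short of that start. For *Vim* the GENCODE annotation starts earlier, at base 13573927, so that the 30 bases shown lie within the gene as GENCODE has it. Capitals mark the TATA box motif (TATAAA, searched on both strands).
Cd34, chr1:194938719-194938818: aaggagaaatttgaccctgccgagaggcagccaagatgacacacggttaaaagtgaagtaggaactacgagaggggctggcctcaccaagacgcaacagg
S100a4, chr3:90603670-90603769: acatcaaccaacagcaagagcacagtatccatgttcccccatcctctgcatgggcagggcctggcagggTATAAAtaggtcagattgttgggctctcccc
Dpt, chr1:164796544-164796643: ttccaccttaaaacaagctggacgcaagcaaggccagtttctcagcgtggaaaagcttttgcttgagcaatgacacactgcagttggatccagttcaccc
Vim, chr2:13574267-13574296: tcctaacagtgtTATAAAagcagcgccctt

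RefSeq promoter windows, which run from 250 bases before to 50 bases after a start, were matched for 7 of the 10 members with 9 windows. The TATA box motif lay 31 bases before the RefSeq start of *S100a4* and 32 bases before that of *Vim*. In *Dpt* its letters lay 13 bases into the transcript, beyond the stretch shown. It was thus held by 3 of the members' 9 windows, against 13.6% of the 32851 windows of all genes. The CCAAT box (CCAAT) was found in windows of *Pi16*, *Gsn* and *Vim*, and in 37.4% of all windows. The GC box (GGGCGG) was found for *Gsn* and in 35.7% of all windows. The AP-1 motif (TGANTCA) was in 0 of the 9 windows and in 7.81% of all. These are matches of letters and not measured binding.

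The libraries held 38330019 to 46797446 reads assigned to genes, so that 3 reads, the limit that a count of 0 allows, correspond to 0.0641 to 0.0783 CPM (reads scaled to the total of a library), for counting error only. The entry taken as *Charme* (CUFF405) had 5, 15 and 11 reads in the WT libraries and 0, 6 and 3 reads in the CharmeKO libraries. As a check of the cell type, the fibroblast markers *Col1a1* and *Pdgfra* were high in every library, at 394739 to 818672 and 4110 to 10084 normalised reads (reads divided by a size factor for each library). The endothelial marker *Pecam1* had at most 6.41 normalised reads, and *Cdh5*, another, had 0 to 44.3, with 0 in WT 2 and CharmeKO 3. Markers of smooth muscle, macrophages and mesothelium were present and differed between libraries, and are given below beside some of the members. In bulk libraries such as these, fewer cells of a type and less RNA per cell cannot be told apart.

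The members covered a wide range of expression. Levels were compared between genes as TPM, that is, reads divided by the summed exon length of the gene and scaled to a common total. *Vim* was the highest, with a mean of 2232 TPM over the 6 libraries (977 to 3319), and its lowest library was above the highest of *Gsn*, the next member (mean 446 TPM, 281 to 714). *Thy1* followed with 295 TPM (82.3 to 897) and *Dpt* with 122 TPM (33.2 to 298). *Ly6a* and *Dpep1* had means of 62.3 and 38.9 TPM, and *Cd34* ran from 5.16 to 52.8 TPM. At the lower end stood *S100a4* with 12.8 TPM (0.296 to 34.0), *Fap* with 4.21 TPM (1.38 to 6.56) and *Pi16* with 0.718 TPM (0.0944 to 2.69). All other neighbours in this order overlapped in range. *Fap* was still above *Pi16* in every library, while the order of the other overlapping neighbours changed between libraries. *Pi16*, the marker of adventitial fibroblasts, was low in these cultures, with 6 to 212 reads in a library.

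**Figure D1:**
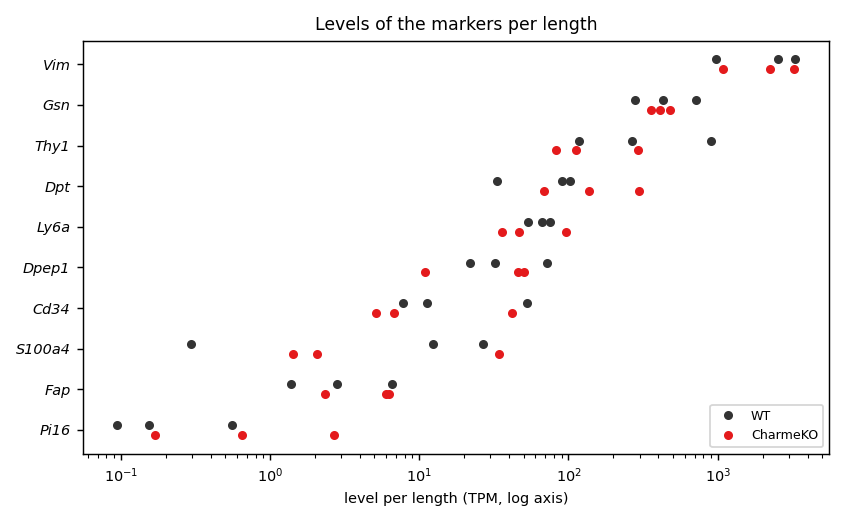
Level per length of each member in TPM on a log axis, each point being a library (black, WT; red, CharmeKO; 3 each). The members run from Vim, at 977 to 3319 TPM, down to Pi16, at 0.0944 to 2.69 TPM, and WT and CharmeKO points overlap for every member.

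Between the genotypes the members did not move together, and differences were small beside the spread between libraries. *Dpt*, a matrix gene of resting and adventitial fibroblasts, was higher in CharmeKO in all 3 pairs, as 16.4% of all tested genes were, with a log2 fold change of 0.85. *Cd34*, *Ly6a*, *Gsn*, *Thy1* and *Vim* were lower in CharmeKO in all 3 pairs, as 14% of all tested genes were, with log2 fold changes of -0.23 (*Vim*) to -1.34 (*Thy1*). These directions are those of normalised reads. In pair 2, those of *Thy1*, *Ly6a*, *Gsn* and *Vim* were turned in TPM, but not in reads set against the library total. WT 2 and CharmeKO 2 had 38330019 and 39823822 reads in all, with 13773 and 10576 for *Thy1* and 80305 and 61595 for *Vim*. Reads of *Ly6a* (1574 and 1384) and *Gsn* (15361 and 13513) were also fewer in CharmeKO 2. In TPM, WT 2 and CharmeKO 2 had 265 and 294 for *Thy1*, and 75.3 and 95.6 for *Ly6a*. They had 281 and 356 for *Gsn*, and 977 and 1081 for *Vim*, so that CharmeKO 2 was the higher. For *Cd34* CharmeKO 2 was lower in TPM too (7.84 and 5.16). Fold changes are on the log2(value + 1) scale, on which those of genes with few reads depend on the number added. With 0.5 or 5 in place of 1, *Pi16* had 1.49 or 1.27 and *S100a4* -0.23 or -0.33. In limma, 0 of the 10 members had an adjusted p under 0.05, where the share of all 15948 tested genes was also 0%. With the replicate number as a blocking term, DESeq2 called 0.401% of all tested genes, and *Dpt* among them. The share of all tested genes that it called as higher was 0.163%.

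Among the markers of activation, *Thy1* (ENSMUSG00000032011, chr9:44043384-44048579 in GRCm38), a surface glycoprotein anchored by a lipid tail that binds integrins, had the most negative log2 fold change of the members. It had 4602, 14705 and 29469.8 normalised reads in WT 1, 2 and 3, and 4485, 10398 and 2658 in CharmeKO 1, 2 and 3. WT 3 was the highest and CharmeKO 3 the lowest of the 6 libraries, while the libraries numbered 1 were almost equal, and the groups overlapped. The log2 fold change was -1.34 (SE 0.769, 95% interval -3.18 to 0.51), with an unadjusted p of 0.129 and an adjusted p of 0.9999 in limma. The differences within pairs 1, 2 and 3 were -0.04, -0.50 and -3.47 on the log2 scale. In normalised reads *Thy1* was thus lower in CharmeKO in each pair, but most of its mean difference came from the libraries numbered 3. Without WT 3 the log2 fold change was -0.72, and without WT 1 it was -2.06. The DESeq2 Wald test without the block gave *Thy1* an unadjusted p of 0.0457 and an adjusted p of 0.9999.

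*Fap* (ENSMUSG00000000392, chr2:62500943-62574075), a serine protease of the cell surface that is induced in activated fibroblasts, was among the less variable members. It had 209, 144 and 408 normalised reads in WT and 176, 399 and 380.1 in CharmeKO. WT 2 was the lowest and the groups overlapped. Its log2 fold change was 0.37 (SE 0.502, 95% interval -0.83 to 1.58), and the pairs gave -0.25, 1.46 and -0.10, so that only pair 2 was higher in CharmeKO.

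*S100a4* (ENSMUSG00000001020, chr3:90603771-90606045), a calcium-binding protein also called fibroblast-specific protein, was the most variable member. It had 203, 3.20 and 79.1 normalised reads in WT and 264, 9.83 and 13.05 in CharmeKO. Both libraries numbered 1 were high and both numbered 2 were low. The highest library was 82.5 times the lowest, which was WT 2 with 3 reads, so that this fold rests on very few reads. The log2 fold change was -0.26 (SE 1.79, 95% interval -4.55 to 4.04), and the pairs gave 0.38, 1.37 and -2.51. Its sign was not stable, as edgeR gave 0.0072 and DESeq2 0.0040. Of its 584 annotated exon bases, 51.7% are shared with *Gm42674*, a gene on the same strand, and reads from shared bases are left out when reads are assigned to genes.

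*Vim* (ENSMUSG00000026728, chr2:13573927-13582826), the intermediate filament protein of mesenchymal cells, was among the most abundant genes of the table. It had 206040, 85742 and 131267 normalised reads in WT and 204268, 60556 and 115268 in CharmeKO. The libraries numbered 1 were the highest and those numbered 2 the lowest in both groups. For *Vim* the log2 fold change was -0.23 (SE 0.574, 95% interval -1.61 to 1.14). Within pairs *Vim* differed by -0.01, -0.50 and -0.19, and the replicate number held 94.1% of its variance, the highest share of the 10 members.

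The resting and adventitial markers were examined in the same way. *Pi16* (ENSMUSG00000024011, chr17:29317680-29330593), a lipid-anchored protein of the CAP superfamily, had 12.8, 65.1 and 6.59 normalised reads in WT and 54.8, 12.8 and 184 in CharmeKO. CharmeKO 3 was the highest library and WT 3 the lowest, but CharmeKO 2 was as low as WT 1. Its fitted log2 fold change was 1.45 (SE 1.18, 95% interval -1.38 to 4.29), the largest of the members, with differences of 2.02, -2.26 and 4.61 in the pairs. The replicate number held 1.31% of its variance, a share below that of all but 0.382% of the tested genes, and 78.1% of it was left to neither the number nor genotype.

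*Cd34* (ENSMUSG00000016494, chr1:194938819-194961279), a sialomucin of progenitor, endothelial and adventitial cells, had 5043, 1058 and 905 normalised reads in WT and 4075, 444 and 534 in CharmeKO. The libraries numbered 1 were the highest in both groups, several times above the others. The log2 fold change was -0.77 (SE 1.02, 95% interval -3.22 to 1.67), and it was 0.02 without WT 1. *Cd34* was lower in CharmeKO in each pair (-0.31, -1.25 and -0.76). With the replicate number as a block the SE fell from 1.02 to 0.203 and limma gave an unadjusted p of 0.0156, an adjusted p of 0.7997, and in DESeq2 the adjusted p was 0.176.

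*Ly6a* (ENSMUSG00000075602, chr15:74994877-74998031), which encodes Sca1, had 840.0, 1681 and 883 normalised reads in WT and 753, 1361 and 464 in CharmeKO. The libraries numbered 2 were the highest of each group and CharmeKO 3 was the lowest of all. CharmeKO and WT differed by a log2 fold change of -0.46 (SE 0.456, 95% interval -1.56 to 0.63). In normalised reads *Ly6a* was lower in CharmeKO in each pair, by -0.16, -0.30 and -0.93, and with the block its unadjusted p in limma was 0.0609.

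*Dpt* (ENSMUSG00000026574, chr1:164796644-164824266), which encodes dermatopontin, a matrix protein that binds decorin and fibronectin, was the member that differed most evenly. It had 2324, 2870.0 and 627 normalised reads in WT and 3153, 6064 and 1280.3 in CharmeKO. In each group library 2 was the highest and library 3 the lowest, and the CharmeKO library was above its WT partner each time, while the groups overlapped. The log2 fold change was 0.85 (SE 0.750, 95% interval -0.95 to 2.65), with differences of 0.44, 1.08 and 1.03 in the pairs. With the replicate number as a block the SE was 0.160 and the 95% interval 0.42 to 1.28 in limma, with an unadjusted p of 0.00447 and an adjusted p of 0.7997. DESeq2 with the block gave a log2 fold change of 0.84 (SE 0.210) and an adjusted p of 0.0190. *Dpt* was called by that fit alone among those on all 6 libraries, and the call depended on the pairs. The adjusted p in DESeq2 with the block was 0.0178 without the pair numbered 1, 0.954 without pair 2 and 0.126 without pair 3, while the log2 fold change stayed between 0.74 and 1.05. These fits were chosen after seeing the data, and they called 145 of 15319, 12 of 15375 and 86 of 15516 tested genes.

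*Dpep1* (ENSMUSG00000019278, chr8:123186242-123201812), a lipid-anchored dipeptidase, had 1054, 3315 and 601 normalised reads in WT and 1656, 1353 and 295 in CharmeKO. The libraries numbered 3 were the lowest of each group and WT 2 was the highest of all. For *Dpep1* limma gave a log2 fold change of -0.56 (SE 0.847, 95% interval -2.59 to 1.47), and the pairs gave 0.65, -1.29 and -1.02. In DESeq2 with the block and without pair 1, where *Dpep1* was lower in both remaining pairs, its log2 fold change was -1.17 with an adjusted p of 0.0195. That fit was chosen after seeing the data, and it called 145 of 15319 tested genes.

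*Gsn* (ENSMUSG00000026879, chr2:35256380-35307892), which encodes the actin-severing protein gelsolin, was the steadiest member. It had 17879, 16401 and 24722 normalised reads in WT and 17238.5, 13285 and 16365 in CharmeKO. CharmeKO 2 was the lowest and WT 3 the highest library, and the whole range was 1.86-fold. The log2 fold change was -0.32 (SE 0.231, 95% interval -0.87 to 0.24), and the pairs gave -0.05, -0.30 and -0.60. Genotype held 35.5% of its variance, the highest share of the members.

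**Figure D2:**
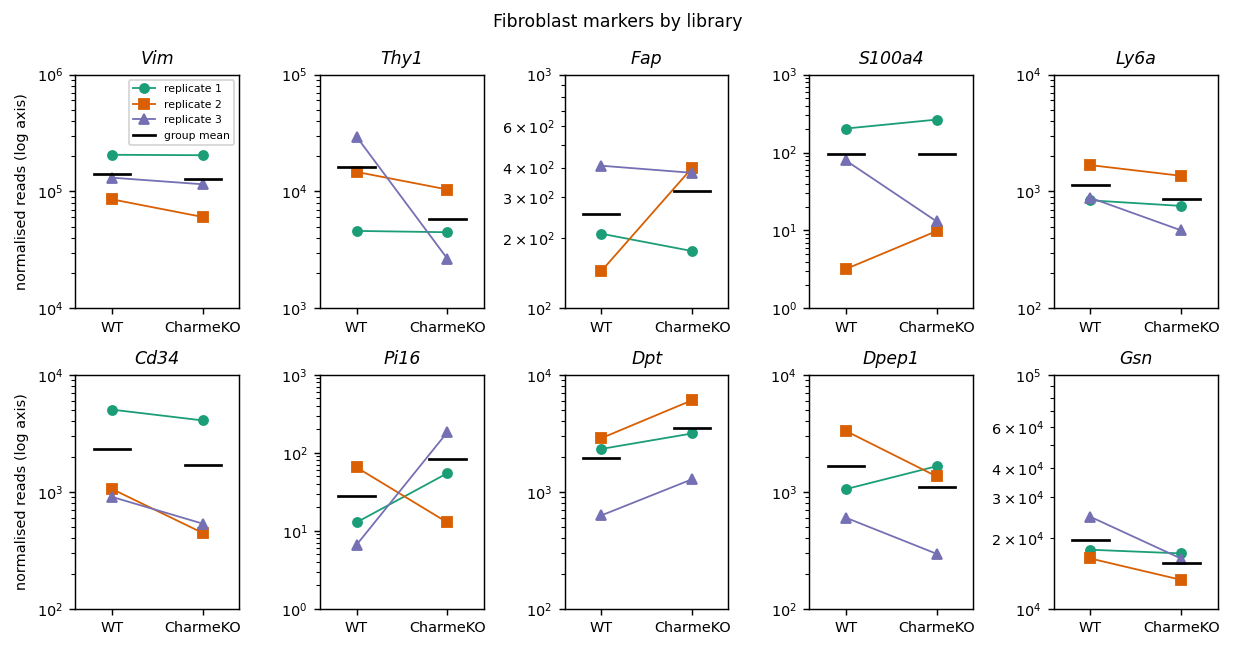
Normalised reads of the 10 members in each library on log axes, with lines joining WT and CharmeKO libraries of the same replicate number and black bars for the group means (n = 3). Dpt is higher in CharmeKO in all 3 pairs, Vim, Cd34, Ly6a, Gsn and Thy1 are lower in all 3, and the direction differs between pairs for the others.

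At an unadjusted p under 0.05, limma without the block counted 0 of the 10 members and 0.897% of all tested genes. The edgeR test called 0 members with or without the block, as it called 0 genes, and at an unadjusted p under 0.05 it counted 0 members without the block (0.991% of all genes) and *Cd34* and *Dpt* with it (4.82%). The DESeq2 Wald test called 0 members and 0.0502% of all genes, with *Thy1* at an unadjusted p under 0.05 (1.79% of all genes). With the block it called *Dpt* alone of the members, with *Cd34* and *Dpt* at an unadjusted p under 0.05 (5.59% of all genes). With the block, limma counted *Cd34* and *Dpt* at an unadjusted p under 0.05, and 5.37% of all genes. The WT and CharmeKO values were separate for 0 members and for 4.11% of all genes. Log2 fold changes reached 1 in size for *Thy1* and *Pi16*, and for 5.04% of all genes.

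The direction of the members was mixed. Of the 10, 7 had a log2 fold change below 0, against 49.6% of all tested genes, and the median was -0.29, against 0.0022 over all tested genes. In all 3 pairs of normalised reads, 5 members were lower and 1 was higher in CharmeKO, and together these 6 compare with 30.4% of all tested genes. Among the 6 resting and adventitial members 2 were higher and 4 lower, with a median of -0.39. Among the 4 activated and mesenchymal members 1 was higher and 3 were lower, with a median of -0.24. Neither group of markers therefore moved as a unit. The median of the first group was 0.07 without CharmeKO 3, and that of the second ran from -0.96 without CharmeKO 1 to 0.19 without WT 1.

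**Figure D3:**
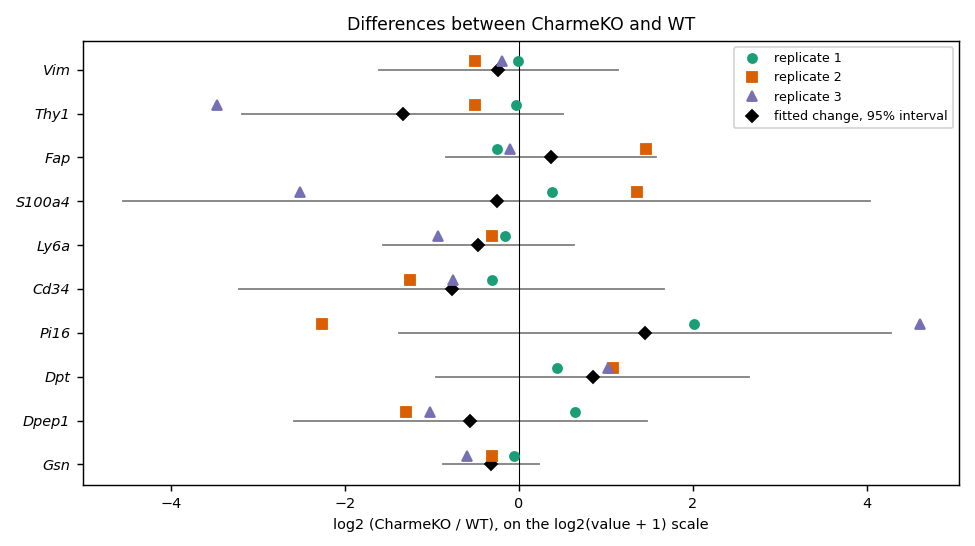
Log2 difference between CharmeKO and WT for each member, with the fitted change and its 95% interval from limma without the block (black, n = 3 per group) and the difference within each pair (coloured). All 10 intervals include 0, and the largest distances from 0 are those of Pi16 (4.61) and Thy1 (-3.47) in pair 3.

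The size of the differences depended on the pair. In pair 1, 9 members differed by -0.31 to 0.65 on the log2 scale and *Pi16* by 2.02, and the median absolute difference was 0.28 over the members and 0.17 over all tested genes. In pair 2 it was 1.16 over the members and 0.28 over all tested genes, and 6 members differed by more than 1, against 12.9% of all tested genes. In pair 3 it was 0.98 over the members and 0.32 over all tested genes, and 5 members differed by more than 1, against 18.4% of all tested genes. The corresponding share of all tested genes in pair 1 was 5.86%. By the median, the members thus differed more than all tested genes did in each pair, and most so in pairs 2 and 3, in both directions. A pair holds a single library of each genotype, so that within it genotype and the spread between libraries cannot be told apart.

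The spread between libraries was large for most members. Over the 6 libraries the highest value was 82.5 times the lowest for *S100a4*, 28.0 times for *Pi16*, 11.3 times for *Cd34*, 11.2 times for *Dpep1* and 11.1 times for *Thy1*, where the median tested gene had a range of 2.11-fold. A range of at least 3 log2 units was seen for 6 members and for 12.7% of all tested genes. *Ly6a*, *Vim* and *Fap* had ranges of 3.62-fold, 3.40-fold and 2.83-fold, and *Gsn* the smallest. Within the WT group alone, *S100a4* differed by 63.3-fold, *Pi16* by 9.88-fold and *Thy1* by 6.40-fold. The folds of *S100a4* rest on 3 reads in WT 2, and those of *Pi16* on 6 reads in WT 3.

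This spread followed the replicate number for most members, as it did for most tested genes. The number held over 50% of the variance of the log2 values in 7 of the 10 members and in 73.8% of all tested genes. It held 94.1% for *Vim*, 89.8% for *Cd34*, 86.3% for *S100a4*, 81.2% for *Dpt*, 78.5% for *Dpep1* and 77.3% for *Ly6a*. *Fap* and *Gsn* had shares of 50.3% and 47.1%. *Thy1* and *Pi16* stood lowest, with 26.0% and 1.31%. Genotype held 32.2% for *Thy1*, 20.6% for *Pi16* and 0.322% for *S100a4*. Over all tested genes the replicate number held 67.7% of the variance and genotype 10.6%. The replicate number has more levels than genotype, so that on average it would hold the larger share even without any effect. The labels do not say what libraries of the same number share.

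**Figure D4:**
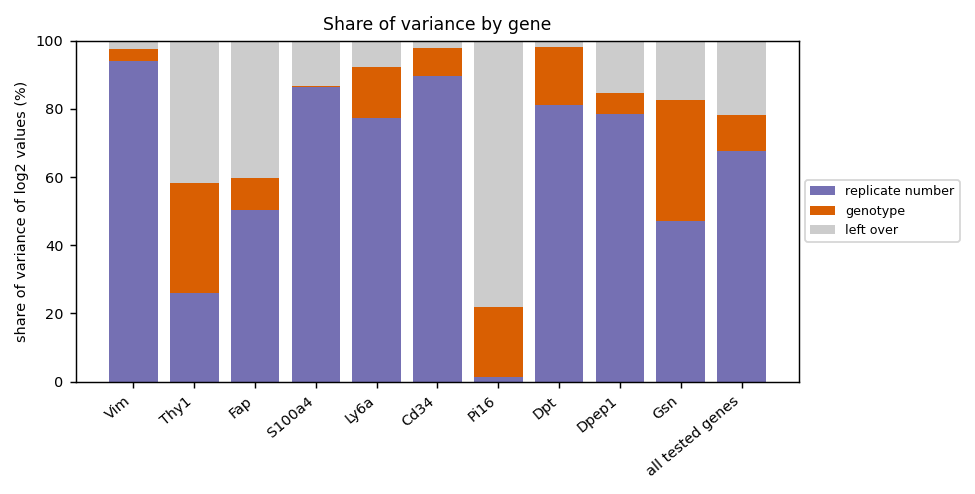
Share of the variance of the log2 values of each member that goes with the replicate number, with genotype, and with neither, over the 6 libraries, with all tested genes on the right. The replicate number holds 94.1% for Vim and 1.31% for Pi16, and 67.7% over all tested genes.

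Because the study followed cells positive for both CD90 and Sca1, the transcripts of the 2 genes were also set against each other within each library. Per length, *Thy1* was above *Ly6a* 2.20, 3.52 and 13.4 times in WT 1, 2 and 3, and 2.40, 3.07 and 2.30 times in CharmeKO. WT 3 stood apart, and the other 5 libraries lay between 2.20 and 3.52. In bulk RNA this ratio says nothing about how many cells carry both proteins.

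Patterns over the 6 libraries were then compared between genes by the root mean square (RMS) distance of log2 values centred on each gene. The genes nearest to *Thy1* were *Or2y7*, an olfactory receptor gene (distance 0.235 log2 units), and *Mirg*, a long non-coding RNA (0.339). *Mirg* had 174, 659 and 721 normalised reads in WT and 159.6 to 440.4 in CharmeKO 1 and 2, with 67.0 in CharmeKO 3, which gives the same order of high and low libraries as in *Thy1*. Nearest to *Ly6a* were *Dclk2*, a kinase gene (0.0722), and *Maneal* (0.129). *Dclk2* had 217, 477 and 267 normalised reads in WT and 220.2, 375 and 128 in CharmeKO. Nearest to *Pi16* were *Tlr1*, a receptor of innate immune cells (0.557), and *Lrrc17* (0.589), which is also on the list of activated genes below, and both were farther from it than the nearest genes were from *Thy1* and *Ly6a*. *Tlr1* had 46.3, 119.6 and 13.2 normalised reads in WT and 148, 13.8 and 256 in CharmeKO.

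Among the members themselves, the patterns of *Gsn* and *Vim* were the closest (0.550). The member nearest to *Fap* was *Gsn* (0.637), and *Cd34* was nearest to *Vim* (0.858). *Dpt* and *Dpep1* were each nearest to *Ly6a* (0.898 and 0.688). *S100a4* was nearest to *Cd34*, at a distance of 1.44. With 6 libraries and so many genes some near patterns are found for most genes, and the libraries of a pair were alike in most genes.

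Other genes of the same programs were then counted. Of 18 other markers of resting cardiac fibroblasts, all tested, 12 were higher and 6 lower in CharmeKO, 4 were higher in all 3 pairs and 0 were lower in all 3, and 0 were called by limma. Their median log2 fold change was 0.20, but leaving out WT 1, WT 3 or CharmeKO 2 turned it to -0.03, -0.14 or -0.23. *Dcn* (decorin, a partner of dermatopontin) had 21129, 38799 and 14149 normalised reads in WT and 25719, 98888 and 23395 in CharmeKO (log2 fold change 0.79, SE 0.647). It was higher in each pair, by 0.28, 1.35 and 0.73, as *Dpt* was. *Cxcl12*, a chemokine of resting stroma, was higher by 0.51, 0.76 and 2.14 in the pairs (log2 fold change 1.14, SE 0.855). *Mgp*, an inhibitor of calcification, had a log2 fold change of -0.02, and *Meg3*, a long non-coding RNA, of -1.14, with -3.02 in pair 3.

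Of 22 other adventitial and progenitor-like genes 21 were tested, of which 6 were higher and 15 lower, with a median of -0.30 that was -0.56 without CharmeKO 1 and -0.08 without CharmeKO 3. In all 3 pairs, 4 were lower and 0 higher, and 0 were called by limma. The pair medians were -0.03, 0.05 and -0.996, so that most of the difference lay in pair 3. *Fn1* (fibronectin) was lower in each pair, by -0.10, -1.45 and -0.38, and *Axl*, a receptor kinase, by -0.06, -0.17 and -0.19. *Fbn1* (fibrillin) had a log2 fold change of -0.72 (SE 0.558) and *Has1*, a hyaluronan synthase, of -0.67 (SE 0.504).

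Of 20 other genes of activated fibroblasts 17 were tested, of which 4 were higher and 13 lower, with a median of -0.42 that was -0.72 without WT 1 and -0.21 without CharmeKO 3. In all 3 pairs, 5 were lower and 0 higher, and 0 were called by limma. *Acta2*, the smooth muscle actin of myofibroblasts, had 96903, 18192 and 155862 normalised reads in WT and 90719, 5415 and 20212 in CharmeKO (log2 fold change -1.60, SE 1.19). Its pair differences of -0.10, -1.75 and -2.95 had the same sign as those of *Thy1*, and those of *Tagln*, an actin-binding protein, were -0.02, -1.64 and -3.33. *Lox*, which crosslinks collagen, was lower by -0.07, -0.69 and -0.61. *Tnc* (tenascin) stood at 138475 normalised reads in WT 3 and at 11013 in CharmeKO 3 but was higher in CharmeKO in the other pairs.

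Relatives of the members were described by family. In the Ly6 family of lipid-anchored surface proteins, 6 of 12 listed genes were tested, with 2 higher and 4 lower and a median of -0.36 that was -0.21 without CharmeKO 2. *Cd59a*, a complement inhibitor, had 327, 345 and 290.0 normalised reads in WT and 326, 68.8 and 34.8 in CharmeKO (log2 fold change -1.78, SE 0.781). *Lypd1* had 94.5, 159 and 22.0 in WT and 76.9, 495 and 1901 in CharmeKO (2.57, SE 1.26). For both, the libraries numbered 1 were nearly equal while those numbered 2 and 3 were far apart. *Ly6e* and the urokinase receptor *Plaur* had log2 fold changes of -0.24 and -0.47.

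All 6 tested relatives of *Pi16* in the CAP superfamily, of 7 listed, were lower in CharmeKO by the fitted value, whereas *Pi16* was higher, and 1 of them was lower in all 3 pairs. Their median was -0.66, and it was -1.12 without WT 1 and -0.29 without WT 2. *Glipr2* had 2169.5, 2548 and 5538 normalised reads in WT and 2069, 1439 and 1658 in CharmeKO (log2 fold change -0.88, SE 0.371), and was lower in each pair. *Pi15* had a log2 fold change of -0.42 and *Glipr1* of -0.01.

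Among 8 tested peptidases related to *Fap* and *Dpep1*, 3 were higher and 5 lower, with a median of -0.08 that was 0.04 without WT 1, 0.03 without WT 2 and -0.27 without WT 3. *Dpp8*, *Dpp9* and *Prep*, which are cytosolic enzymes of the family of *Fap*, differed little, with log2 fold changes of -0.18, -0.06 and 0.00. *Mme* (neprilysin) had 1431 normalised reads in WT 2 and 97.1 to 370 in the CharmeKO libraries, with a log2 fold change of -0.64.

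Among sialomucins related to *Cd34* and binding partners of dermatopontin, 4 of 6 tested genes were higher and 2 lower, with a median of 0.17 that was -0.12 without CharmeKO 2 and 0.39 without WT 2. *Tgfb1*, which dermatopontin binds, had a log2 fold change of 0.18 (SE 0.340). In the gelsolin family, 2 of 5 tested genes were higher and 3 lower, with a median of -0.18 that was -0.39 without CharmeKO 1 and -0.10 without CharmeKO 3. *Svil*, *Flii* and *Capg* had log2 fold changes of 0.13, -0.18 and -0.32, and *Scin* had 0 to 28.8 normalised reads.

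Of 7 tested intermediate filament and linker genes related to *Vim*, 2 were higher and 5 lower, with a median of -0.43 that became 0.19 without CharmeKO 2. *Nes* (nestin) had 2947, 1513 and 10475 normalised reads in WT and 2299, 796 and 1833 in CharmeKO, and was lower in each pair (-0.36, -0.93 and -2.51). *Plec* (plectin), which ties filaments to adhesions, was lower in each pair by -0.24, -0.63 and -0.42, and *Lmna* had a log2 fold change of -0.10. In the S100 family, 3 of 8 tested genes were higher and 5 lower, with a median of -0.10 that ran from -0.59 without CharmeKO 1 to 0.28 without WT 1. *S100a6* followed the replicate number as *S100a4* did in its high libraries, with 58091, 9709 and 32759 normalised reads in WT and 69571, 12984 and 25858 in CharmeKO. *S100a1*, *S100a10* and *S100a11* had log2 fold changes of 0.18, -0.14 and -0.09, and *S100a3* had 0 to 31.5 normalised reads.

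The list of genes whose products bind *Thy1* holds integrin chains and the syndecan *Sdc4*. Of its 9 genes, all tested, 3 were higher and 6 lower in CharmeKO, with a median of -0.47 that became 0.11 without CharmeKO 3. The median was -0.07 in edgeR and -0.08 in DESeq2, both without the block. The 3 higher genes, named after their values were seen, were *Sdc4* (0.25) and *Itgb2* and *Itgax* (0.58 and 0.89), integrin chains of leukocytes. *Itgav* had 20323, 14355 and 26394 normalised reads in WT and 15203, 11471 and 16722 in CharmeKO, and was lower in each pair (-0.42, -0.32 and -0.66). *Itgb1* was lower by -0.23, -0.33 and -1.10. *Itga5* had 37582 normalised reads in WT 3, against 4095 to 9494 in the other 5 libraries, so that WT 3 was its highest library as it was for *Thy1*. *Itgb5* had a log2 fold change of -0.13.

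Markers of other cell types and states were set beside the members, and some were high in the same libraries. Summed over 12 smooth muscle and pericyte genes, the level was 3967, 1441 and 6192 CPM in WT and 3646, 868 and 1449 CPM in CharmeKO. Of these 12 genes 11 were lower in CharmeKO, 8 of them in all 3 pairs, with a median log2 fold change of -1.56 and 0 calls in limma. Leaving out WT 2 moved the median to -2.35, leaving out WT 3 to -0.94 and leaving out CharmeKO 2 to -1.03. WT 3 was the highest library for this list, as for *Thy1*. The other libraries did not follow the same order. The list was lowest in library 2 of each group, where *Thy1* was above library 1. The defining markers *Myh11* and *Cnn1* were above 0 in every library, *Cnn1* with 774, 457 and 14655 normalised reads in WT and 978, 81.6 and 741 in CharmeKO. DESeq2 with the block called *Myh11* (adjusted p = 0.000603). The part of this list in the values of *Thy1*, *Acta2* and *Tagln* was not tested, and *Acta2* and *Tagln* are themselves on the list.

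Summed over 7 mesothelial and epicardial genes, the level was 310.0 and 345 CPM in WT 1 and CharmeKO 1, and 21.8 to 93.0 CPM in the other 4 libraries. *Cd34*, *S100a4* and *Vim* were also highest in the libraries numbered 1. The defining marker *Upk3b* had 4455 and 4537 normalised reads in these 2 libraries and 297 to 656 in the others. Not all genes of the list followed this order. *Wt1*, also a defining marker, was lowest in WT 1 (213 normalised reads) and highest in CharmeKO 2 (1500). *Krt18* was highest in CharmeKO 2 (75.7) and *Krt19* in WT 3 (781). The part of this list in the 3 members was not tested.

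Summed over 12 macrophage and other haematopoietic genes, the level was 207, 126 and 47.6 CPM in WT and 440, 340.4 and 25.6 CPM in CharmeKO. *Lyz2* alone made 26.7% to 78.6% of this sum. Without it, an alternative chosen after seeing the data, the sum was 91.1, 48.6 and 23.7 CPM in WT and 142, 72.9 and 18.8 CPM in CharmeKO. Of the 12 genes 6 were higher and 6 lower. Their median log2 fold change was -0.03 in limma, but it was 1.38 without CharmeKO 3 and -0.98 without CharmeKO 1. It also depended on the method, with 0.80 in both edgeR and DESeq2 without the block. The defining markers of the list, *Ptprc* and *Adgre1*, had 0 to 255 and 6.09 to 515 normalised reads, and *Ptprc* was at 0 in CharmeKO 3. That library had the highest level of *Pi16*, and the part of the list in *Pi16* and *S100a4* was not tested. Over 7 endothelial genes the summed level was 63.9, 82.4 and 95.1 CPM in WT and 41.5, 149 and 31.2 CPM in CharmeKO. WT 1 was thus the lowest WT library and CharmeKO 2 the highest of all. *Flt1* alone made 78.7% to 95.9% of the sum. Without *Flt1*, an alternative chosen after seeing the data, it was 7.04, 6.05 and 4.10 CPM in WT and 8.86, 6.05 and 1.69 CPM in CharmeKO. Only then was it highest in the libraries numbered 1, as *Cd34* was. Of the genes left, *Pecam1*, *Kdr* and *Egfl7* were lowest of WT in WT 1, and *Cdh5*, *Tek* and *Vwf* were highest of WT there. The part of this list in *Cd34* was not tested. Of 5 T cell genes, *Lck* alone was measured, at up to 1.23 CPM, and the 5 Schwann and neuronal genes summed to 32.9 to 182 CPM, of which *Tubb3* made at least 93.4%. Cardiomyocyte genes, of which 3 were measured, summed to 3.22 to 18.5 CPM.

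Of 8 fibroblast markers, 6 were higher and 2 lower in CharmeKO, with a median log2 fold change of 0.20 that was -0.06 without WT 1, -0.04 without WT 3 and 0.64 without WT 2. Their sum was 20438, 51459 and 28547.5 CPM in WT and 28624.5, 42755 and 39904 CPM in CharmeKO. Over 10 genes of the cell cycle the level summed to 443, 195 and 544 CPM in WT and 425, 186 and 542 CPM in CharmeKO, almost the same within each pair, and the median share of their variance held by the replicate number was 96.8%. The libraries numbered 2, lowest in the cell cycle genes, were also lowest in *Vim* and *S100a4* of each group and highest in *Ly6a*. Whether growth of the cultures had a part in these values was not tested.

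**Figure D5:**
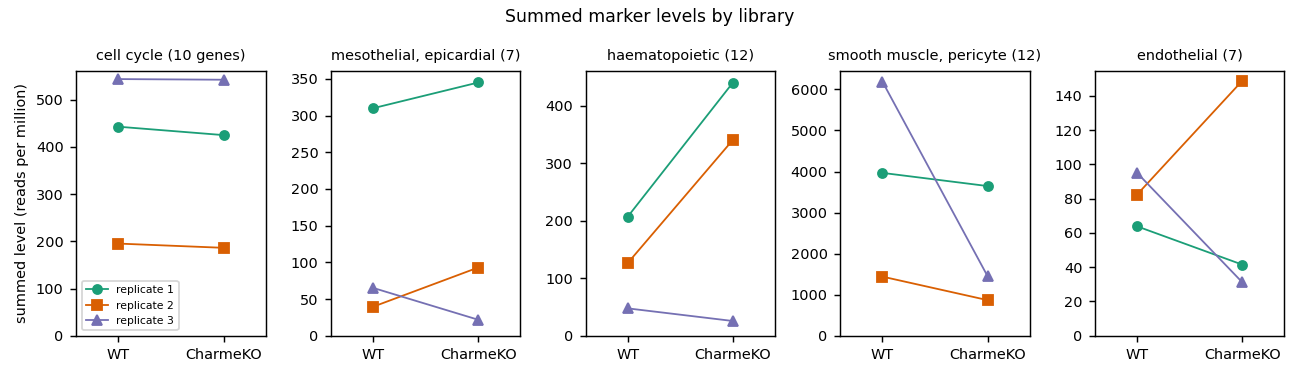
Summed level, in CPM, of 5 lists of marker genes in each library, with lines joining libraries of the same replicate number. Cell cycle genes are nearly equal within each pair, the mesothelial sum (not each of its genes) is highest in the libraries numbered 1, and smooth muscle genes are at 6192 CPM in WT 3 and 1449 CPM in CharmeKO 3.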

How the data were processed

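Poly(A) RNA of cultured CFs was sequenced in 3 WT and 3 CharmeKO libraries. The authors aligned reads with STAR to GRCm39, counted reverse-strand reads per gene on Ensembl release 87 (a release made for another build) with *Charme* added, filtered out low counts and normalised with DESeq2; versions are not given in the sources used here. As deposited, the values are a signal: read counts over a size factor of each library. Whole reads were recovered for 100% of 116676 values (tolerance 0.01), with totals of 38330019 to 46797446 per library. The limit of 3 reads covers counting error only. The 95% intervals are from limma and rest on the spread between libraries. The replicates may be separate primary lines, which the labels do not say, so that p-values measure the spread between these libraries.

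The main test was limma 3.58.1 in R 4.3.3 on log2(value + 1), two-sided, with genotype as the only term, over 15948 genes (10 or more reads in 2 or more libraries), and with Benjamini-Hochberg adjustment at 0.05. Alternatives were pseudocounts of 0.5 and 5, other filters and scalings, edgeR 4.0.16 (quasi-likelihood) and DESeq2 1.42.0 on recovered reads, the replicate number as a block, and leaving out each library. Deviations of same-numbered libraries from group means were correlated across genes with r = 0.762, 0.514 and 0.217, against -0.643 to 0.222 for other numbers, and the numbers were taken to pair the libraries. Scripts were tested on simulated data.

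The members, the gene lists and the tests were chosen with earlier results of these data known. Named genes were the members, of each list of other or related genes the 3 most abundant and the 2 with the lowest p, the defining markers of other cell types, the nearest patterns and the *Charme* entry. *Lck*, *Flt1*, *Kdr*, *Egfl7*, *Tek*, *Vwf*, *Krt18*, *Krt19*, *Lyz2*, *Tubb3*, *Sdc4*, *Itgb2* and *Itgax* were named after their values were seen. Gene coordinates and exon lengths are from GENCODE M21 and promoters from RefSeq, both on GRCm38; no coordinate was converted. TPM used the union of all exons of a gene. Sequences of proteins were not used here.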

Additional observations from a re-analysis of the deposited data

How the results depend on the processing

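Past the adjusted threshold there were 0 genes in limma and edgeR, with and without the replicate block, and in limma under every pseudocount, filter and scaling and without any library. The DESeq2 Wald test called 8 genes, and adding the replicate block raised this to 64. Leaving out pairs 1, 2 and 3 from the latter (chosen after seeing the data) gave 145 of 15319, 12 of 15375 and 86 of 15516 tested genes. The number of members called was 1 with DESeq2 and the replicate block (*Dpt*), and 0 to 2 when a pair was left out of it, the 2 being *Dpt* and *Dpep1* without pair 1. The block changed no other call. DESeq2 without the block gave no p-value for *Cd34*.

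The sign of *S100a4* turned with edgeR (0.0072) and DESeq2 (0.0040). Log2 fold changes without a single library ran from -1.79 to 0.016 for *Cd34*, -1.10 to 0.22 for *Dpep1*, -1.90 to 0.90 for *S100a4* and -0.66 to 0.21 for *Vim*. They kept their sign for *Pi16* (0.54 to 2.42), *Ly6a* (-0.86 to -0.09), *Dpt* (0.17 to 1.44), *Gsn* (-0.44 to -0.14), *Thy1* (-2.06 to -0.72) and *Fap* (0.03 to 0.78). In DESeq2 with the block, *Fap* was -0.17 without pair 2, and *Pi16* and *S100a4* were -0.14 and 0.75 without pair 3. The cause was not tested. *Pi16* and *S100a4* could not be examined with at least 10 reads in all 6 libraries. No scaling moved the median of all genes by more than 0.04.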
